A study of Mus musculus with 16 samples.

Results

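Deletions at a mouse recombination hotspot were compared between testes in which meiotic breaks form without restraint and testes in which no meiotic breaks form. The comparison used 8 of the 16 libraries of the study: 4 from Atm-/- mice and 4 from Spo11-/- mice, chosen by genotype label and paired by amplicon number. The remaining 8 libraries, from Atm+/+ and Atm+/- mice, entered only where named. All mice were C57BL/6 adults of 2 to 5 months, and the labels name testis as the tissue and spermatocytes as the cell type. Genomic DNA carries no expression markers, so the cell type could not be checked. Each genotype was amplified with 22 cycles of PCR as 4 overlapping products of about 580 bp. The whole cell suspension of a mutant testis was used. The sources used here do not say how many mice a library stands for, or whether a genotype's 4 amplicons came from separate animals. The p-values therefore reflect nothing but library-to-library spread, part of which may be technical. The sample descriptions place the 4 Atm-/- libraries in a set of their own and the Spo11-/- libraries in 2 further sets, so for this comparison genotype and set cannot be told apart.

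SPO11 is the protein that makes the DNA double-strand breaks from which meiotic recombination starts, and it cuts mostly within short stretches called hotspots. ATM is a kinase activated by such breaks that holds back further cutting nearby. Without ATM, SPO11 makes many more breaks, also close to each other on the same DNA molecule, whereas without SPO11 spermatocytes make none of these programmed breaks. Spermatocytes of both mutants arrest during meiotic prophase. A segment can be lost when ends of separate breaks are joined. The join may use a few bases present at both ends, called microhomology, of which 1 copy is left in the product.

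The sequenced stretch was chr1:33764688-33765556 (mm10), 869 bp inside Zfp451 (gene ID 98403, protein-coding, chr1:33761541-33815602). Its place among the exons and introns of the gene was not analysed here. All 4 amplicons covered chr1:33764983-33765262, 280 bp. Positions are as deposited, and without a genome sequence it could not be checked whether they count from 0 or from 1. Depth was 3.07 to 3.71 (Atm-/-) and 2.92 to 4.49 (Spo11-/-) in units of 1e6 reads. A single distinct deletion therefore stands for 0.223 to 0.343 per 1e6 reads. A distinct deletion is a combination of left-most possible start and length, counted once per library whatever its reads. Reads carried no molecular identifiers, so the intervals given, all at 95%, cover counting error only.

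The part of the stretch in which Atm-/- deletions ended most often is shown first, because the end positions turn on it. It is chr1:33764977-33765086, 110 bases, rebuilt from the deposited aligned reads and written in the direction of increasing coordinate. The capitals mark the 10-bp windows in which left or right ends were most frequent in Atm-/-, chosen from those data.

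Most used ends: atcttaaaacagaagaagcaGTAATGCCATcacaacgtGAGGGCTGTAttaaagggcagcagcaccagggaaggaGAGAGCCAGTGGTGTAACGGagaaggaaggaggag

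Deletions of 11 bp or more were many times more frequent in Atm-/- than in Spo11-/-, and deletions of 2 to 10 bp were not. Over all rows, the Atm-/- libraries of amplicons 1 to 4 held 116, 127, 127 and 102 distinct deletions of that length, and the Spo11-/- libraries 4, 11, 13 and 14. The Atm-/- library with the fewest thus held more than all 4 Spo11-/- libraries together. The rates were 34.8 ± 4.52 and 2.95 ± 1.25 per 1e6 reads (mean ± SD, n = 4 libraries each). The mean within-amplicon fold was 12.2, and single amplicons lay between 7.78 and 23.9. All 4 amplicons showed the same direction, which in the two-sided exact permutation test over the 16 sign patterns gives p = 0.125, the smallest this design allows, so no comparison of this pair of genotypes can pass 0.05 with the amplicons kept as pairs. Without the pairing, the exact permutation over 70 splits gave its own smallest value, p = 0.0286.

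Rows without any substitution are a stricter set, since their reads match the amplicon everywhere but at the deletion. In this set Atm-/- held 36, 40, 43 and 31 distinct deletions of 11 bp or more and Spo11-/- 1, 7, 6 and 9. The groups did not overlap. The rates were 11.03 ± 1.58 and 1.64 ± 1.04 per 1e6 reads (SD, n = 4 each), a fold of 7.64 with single amplicons from 3.65 to 22.5 (exact permutation p = 0.125, higher in 4 of 4 amplicons, and 0.0286 without the pairing). The pooled counts, 150 against 23, gave a ratio of 6.84 (4.39 to 11.1, exact interval). With at least 2 reads per deletion, the counts without a substitution were 14, 15, 5 and 7 in Atm-/- and 0, 1, 0 and 1 in Spo11-/-. The fold was then 11.8, and over all rows it was 34.4. Both rest on the added count of 0.5 where a Spo11-/- library held none. Over all rows at least 2 reads supported 212 deletions in Atm-/- and 6 in Spo11-/-. Without deletions ending within 20 bp of an amplicon's middle these were 76 and 6.

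Short deletions behaved differently. Over all rows the 2 to 10 bp class averaged 75.9 ± 1.93 per 1e6 reads in Atm-/-, against 76.4 ± 7.55 for Spo11-/- (SD over 4 libraries), a fold of 0.998 with higher values in 1 of 4 amplicons (exact permutation p = 1.0). The pooled ratio lay between 0.910 and 1.08. In rows without a substitution, all 4 Atm-/- libraries (37.1 to 38.9 per 1e6) lay below all 4 Spo11-/- libraries (40.1 to 52.7 per 1e6), a fold of 0.81 (exact permutation p = 0.125, and 0.0286 without the pairing). Deletions of 2 bp made up most of the class, with 402 in Atm-/- and 515 in Spo11-/-, and those of 3 bp numbered 76 and 113. Those of 4 bp numbered 33 and 32, and those of 5 to 10 bp 10 and 22. The 5 to 10 bp counts over all rows lay the other way, at 69 and 45, a pooled ratio of 1.61 (1.09 to 2.40), and 1.25 (0.811 to 1.95) without middle ends. The fold of the longer class exceeded that of the short class by 12.3 times over all rows and by 9.43 times in rows without a substitution, in 4 of 4 amplicons (exact permutation p = 0.125 for both).

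Atm-/- counts were the higher ones in every length bin from 11 bp up to the longest listed deletion, 229 bp. In rows without a substitution, the 11 to 29 bp class held 7, 6, 3 and 7 deletions in Atm-/- and 0, 1, 1 and 3 in Spo11-/-. Here the groups touched: amplicon 3 of Atm-/- (0.808 per 1e6 reads) was lower than amplicon 4 of Spo11-/- (0.841), and without the pairing the exact permutation p was 0.0571. The fold was 4.41. For 30 to 99 bp the libraries held 14, 16, 23 and 12 against 0, 4, 3 and 5 deletions, without overlap and with a fold of 6.60. For 100 bp or more they held 15, 18, 17 and 12 against 1, 2, 2 and 1, and this fold of 8.49 was the most even of the 3, with single amplicons from 7.02 to 9.55. Without deletions that end within 20 bp of an amplicon's middle it was 5.25. With at least 2 reads per deletion the 3 folds were 2.69, 3.498 and 13.4, on 2 Spo11-/- deletions in all. These 2 deletions, of 58 and 45 bp, fell in the 30 to 99 bp class. The folds of 2.69 and 13.4 thus compare Atm-/- with no Spo11-/- deletion, and their Spo11-/- side is the added count alone. Over the 4 length classes of these rows the adjusted p was 0.125 throughout (Benjamini-Hochberg, exact permutation test). Over all rows the folds of the 3 longer classes were 7.65, 7.59 and 19.1 (adjusted exact permutation p = 0.167, higher in 4 of 4 amplicons each). Without amplicon 1, whose Spo11-/- library held the fewest deletions, the 30 to 99 bp fold of rows without a substitution was 4.13, and the 11 to 29 bp fold over all rows was 4.41.

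**Figure D1:**
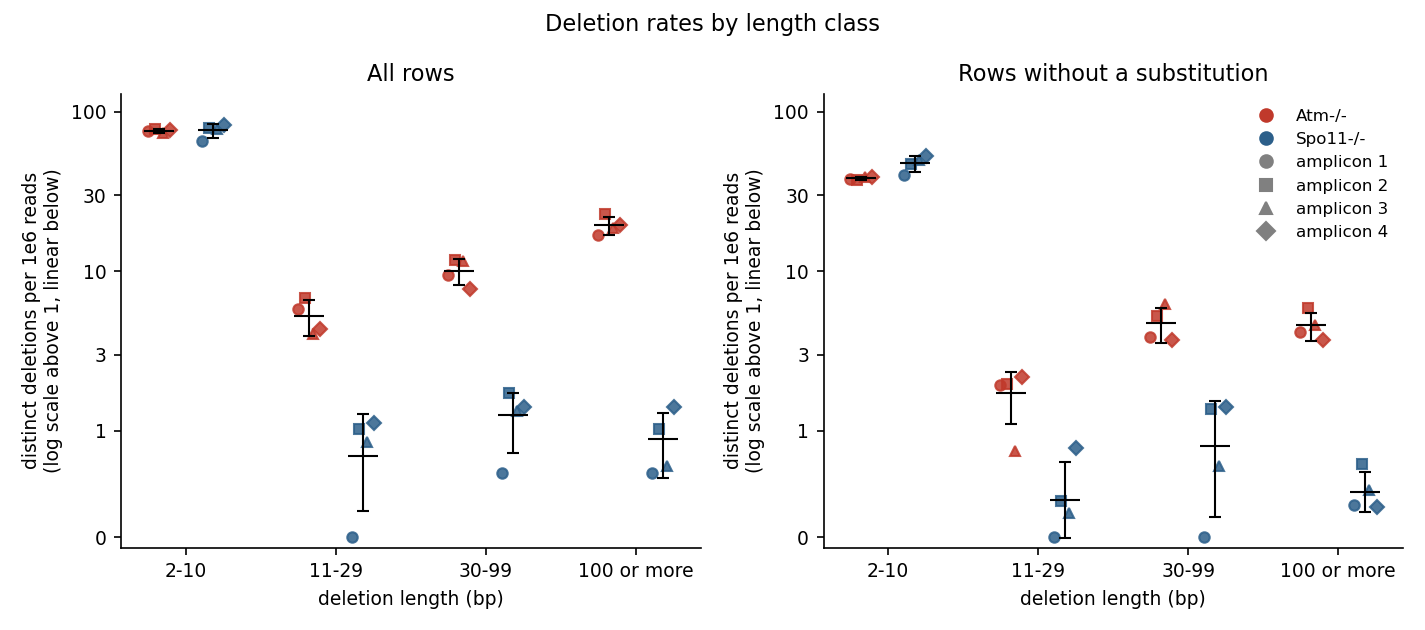
Distinct deletions per 1e6 reads (y axis, logarithmic above 1 and linear below) by deletion length in bp (x axis), for all rows and for rows without a substitution. Each marker is 1 library, its shape the amplicon and its colour the genotype, and black bars are means ± SD of 4 libraries. The genotypes overlap at 2 to 10 bp over all rows, while at 30 bp or more every Atm-/- library lies above every Spo11-/- library in both panels.

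Within the longer class the distribution of lengths was broad in both genotypes. The pooled median of rows without a substitution was 69 bp in Atm-/- and 58 bp in Spo11-/-. Per library the medians were 66.5, 89.5, 75 and 68 bp in Atm-/- and 144, 58.0, 89.0 and 56.0 bp in Spo11-/-, the first of the latter resting on a single deletion. The groups overlapped, and the mean within-amplicon difference of -12.0 bp had an exact permutation p of 0.75. Without amplicon 1 it was 9.83 bp. In finer bins the pooled Atm-/- counts ran from 8 (100 to 124 bp) to 30 (50 to 74 bp), and those of Spo11-/- from 1 to 7, with no bin from 11 bp upward in which Spo11-/- held none. With all deletions kept, no length bin was thus filled with unrestrained breaks and empty without breaks. When deletions ending within 20 bp of an amplicon's middle were left out, 150 to 174 bp held 4 in Atm-/- and 0 in Spo11-/-. The same bin then held 6 and 0 over all rows. Over all rows the medians did separate, at 111.5 to 129 bp in Atm-/- and 58.0 to 104.5 bp in Spo11-/- (difference 50.9 bp, exact permutation p = 0.125). That difference became -15.8 bp when deletions ending within 20 bp of an amplicon's middle were left out.

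Pooled over amplicons, such middle ends were frequent in every genotype but Spo11-/-, though in Atm+/+ and Atm+/- they differed between amplicons. Of the 472 distinct deletions of 11 bp or more over all rows in Atm-/-, 55.9% had an end in the 41 bp at the middle of their amplicon, against 7.14% of 42 in Spo11-/-, 75.6% of 168 in Atm+/+ and 53.6% of 179 in Atm+/-. Around the middle of amplicon 1, chr1:33764938-33764987 held 54 Atm+/+ ends, and 4 without middle ends. Around that of amplicon 3, chr1:33765188-33765237 held 2 Atm+/+ ends either way, and 70 Atm+/- ends against 5 without middle ends. Rows with an undetermined base held 199 of the 472, and all 199 had a middle end, with a median length of 184 bp and a median of 18 substitutions. Spo11-/- libraries listed no row with an undetermined base, whereas Atm-/- libraries listed 170 to 277 each, 861 in all, against 377 in Atm+/+ and 102 in Atm+/-. By amplicon, Atm+/+ libraries listed 195, 182, 0 and 0 such rows and Atm+/- libraries 1, 0, 23 and 78. The most-read deletion of each Atm-/- library over all rows also had a middle end: 181 bp in amplicon 1 with 75 reads, 194 bp in amplicon 2 with 23, 201 bp in amplicon 3 with 24 and 199 bp in amplicon 4 with 42. The count of deletions of 175 to 199 bp over all rows was 105 in Atm-/- and 3 in Spo11-/-, and 7 and 3 without middle ends. The part of read quality or sample set in this was not tested.

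Away from the middle of the amplicons the excess remained in both kinds of row. Without a substitution and without a middle end, 27, 23, 37 and 22 deletions of 11 bp or more stood against 1, 7, 5 and 9, a pooled ratio of 5.20 (3.27 to 8.63). Deletions away from the middle that came only with substitutions, all bases being determined, numbered 99 in Atm-/- and 17 in Spo11-/- after those also seen without substitutions were set aside. Over all rows the fold was 7.14 without the rows holding an undetermined base and 5.61 without middle ends, and for 100 bp or more it was 3.91 in place of 19.1.

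Left ends of Atm-/- deletions gathered in the stretch shown above. The 32 distinct deletions whose left end lay in chr1:33764997-33765006 (GTAATGCCAT) made up 21.3% of the 150 Atm-/- deletions without a substitution. They numbered 9, 12 and 10 in amplicons 1 to 3, and 1 in amplicon 4, in which no listed deletion started before 33765004. No Spo11-/- deletion without a substitution started there, nor did any such deletion of Atm+/+ or Atm+/-. A count of 0 in Spo11-/- allows up to 0.210 per 1e6 reads (3 counts over the genotype). The Atm-/- rate of 2.35 per 1e6, its own counting error left aside, was 11.2 times this limit. Because the window was picked from the Atm-/- data, this is a description and not a test. Long deletions seen only with substitutions were not used to pick it, although they come from the same libraries: 21 of 99 in Atm-/- and 0 of 17 in Spo11-/- started in the window. So did 1 in Atm+/+ and 3 in Atm+/-, for which no totals are given here, so these counts cannot be set against the shares.

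The window held many different deletions. The 32 were 16 to 228 bp long and ended at 26 different positions, and 18 of them were seen in 1 read only. Positions 33764999, 33765000 and 33765002 were the start of 7 each, in 3 amplicons each. The next left-end windows were chr1:33765052-33765061 (GAGAGCCAGT) with 15 in Atm-/- and 1 in Spo11-/-, and chr1:33765015-33765024 (GAGGGCTGTA) with 14 and 0. Together the 3 windows held 40.7% of Atm-/- left ends (32.7 to 49.0%, exact Clopper-Pearson) and 4.35% of Spo11-/- left ends (0.110 to 21.9%). All 3 were picked as the windows fullest in Atm-/-, so these shares are a description and not a test of a difference between genotypes.

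Right ends were most frequent just to the right. The window chr1:33765052-33765061, already second for left ends, held 18 Atm-/- right ends (5, 5, 6 and 2 by amplicon) and no Spo11-/- right end. The adjoining chr1:33765062-33765071 (GGTGTAACGG) held 10 and 0, and chr1:33765133-33765142 (GACTGAAGGC) held 9 and 0. Of the 32 deletions starting in the leading window, 9 ended in the first of these (51 to 62 bp lost), 5 in the second (63 to 68 bp) and 4 in the third (135 to 143 bp). The GAGAGCCAGT window thus bounded deletions on either side.

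**Figure D2:**
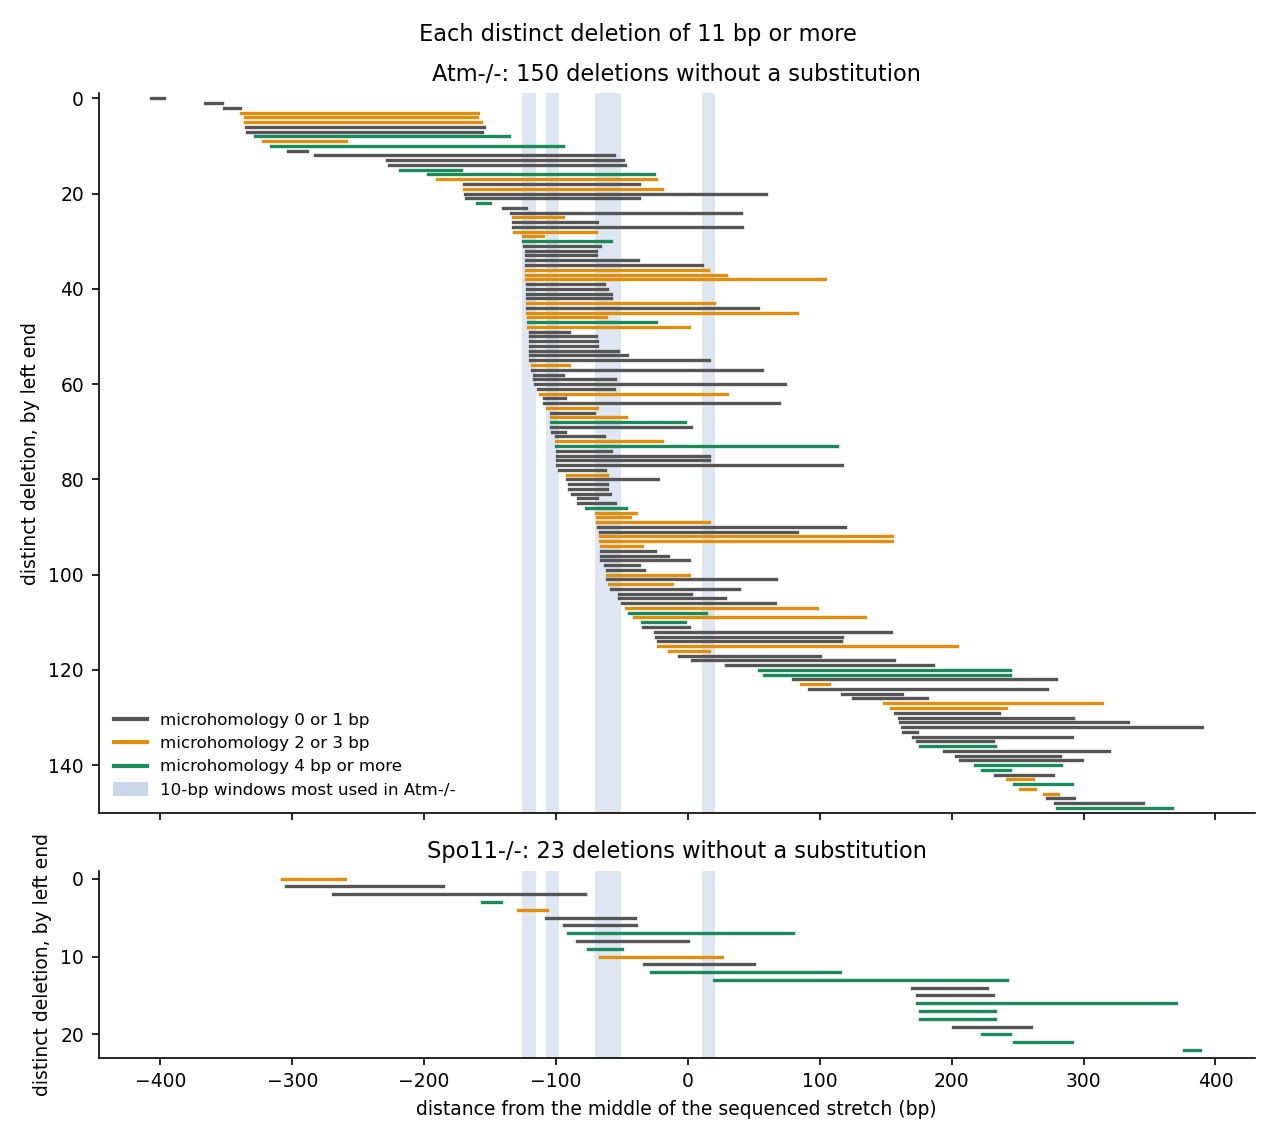
Every distinct deletion of 11 bp or more in rows without a substitution, as a line from its left to its right end (x axis, bp from the middle of the sequenced stretch), sorted by left end (y axis, rank). Colour gives the microhomology and pale bands the 10-bp windows most used by Atm-/- ends. The 150 Atm-/- deletions stack up at the bands, 32 of them starting in the left-most one, whereas none of the 23 Spo11-/- deletions starts there, and 9 of them lie wholly at the right, 5 of these with left ends close together.

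At a resolution of 50 bp, chr1:33764988-33765037 held 69 Atm-/- ends, 60 left and 9 right, the most of any window, and chr1:33765038-33765087 held 68, 27 left and 41 right. Spo11-/- had 5 and 7 ends there. These adjacent windows took 45.7% of the 300 Atm-/- ends (39.9 to 51.5%, exact) and 26.1% of the 46 Spo11-/- ends (14.3 to 41.1%), and without middle ends 51.4% and 25.0%. The 2 to 10 bp class of the same libraries showed no such gathering: 20.2% of its Atm-/- starts and 18.5% of its Spo11-/- starts lay in these windows. Atm-/- ends occurred in 17 of the 18 windows and were missing only from the last, chr1:33765538-33765556. In 4 windows Atm-/- had ends and Spo11-/- none, with 2, 8, 19 and 3 Atm-/- ends. The one with 19, chr1:33765238-33765287, held 7 without middle ends, and over all rows Spo11-/- had 2 ends there. Windows differ in how many amplicons cover them, so ends are compared between genotypes within a window. Each deletion gives 2 ends, which are not independent, so the intervals on ends, here and below, may be too narrow.

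Spo11-/- ends lay more to the right and gathered there in turn. The adjacent windows chr1:33765288-33765337 (6 left ends) and chr1:33765338-33765387 (2 left and 7 right ends) were its fullest adjacent pair. They held 15 of 46 ends (32.6%, 19.5 to 48.0%, exact), against 25 of 300 (8.33%) in Atm-/-. Taken singly, chr1:33765038-33765087 in the Atm-/- peak, with 7 Spo11-/- ends, was fuller than the first of the pair. The 10-bp window most used by Spo11-/- left ends, chr1:33765289-33765298, held 5 of 23 (21.7%, 7.46 to 43.7%, exact), in amplicons 2 to 4, and 3 of 150 in Atm-/-. Of these 5 deletions, 4 were 58 bp long. Like the Atm-/- windows, these were picked from the data they describe. From 33765288 to the end of the stretch, Spo11-/- had 19 of its 46 ends (41.3%, 27.0 to 56.8%, exact) and Atm-/- 46 of 300 (15.3%, 11.4 to 19.9%). Wholly inside this right part were 9 of the 23 Spo11-/- deletions and 16 of the 150 Atm-/- deletions, that is 0.629 and 1.17 per 1e6 reads. The other 14 Spo11-/- and 134 Atm-/- deletions lay wholly or partly left of it. With both ends in the 280 bp that all amplicons cover, Atm-/- held 23, 26, 28 and 14 deletions and Spo11-/- 1, 1, 3 and 4, without overlap. The fold there was 9.59 (exact permutation p = 0.125, higher in 4 of 4 amplicons), larger than the 7.64 of the whole stretch, a difference that was not tested.

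**Figure D3:**
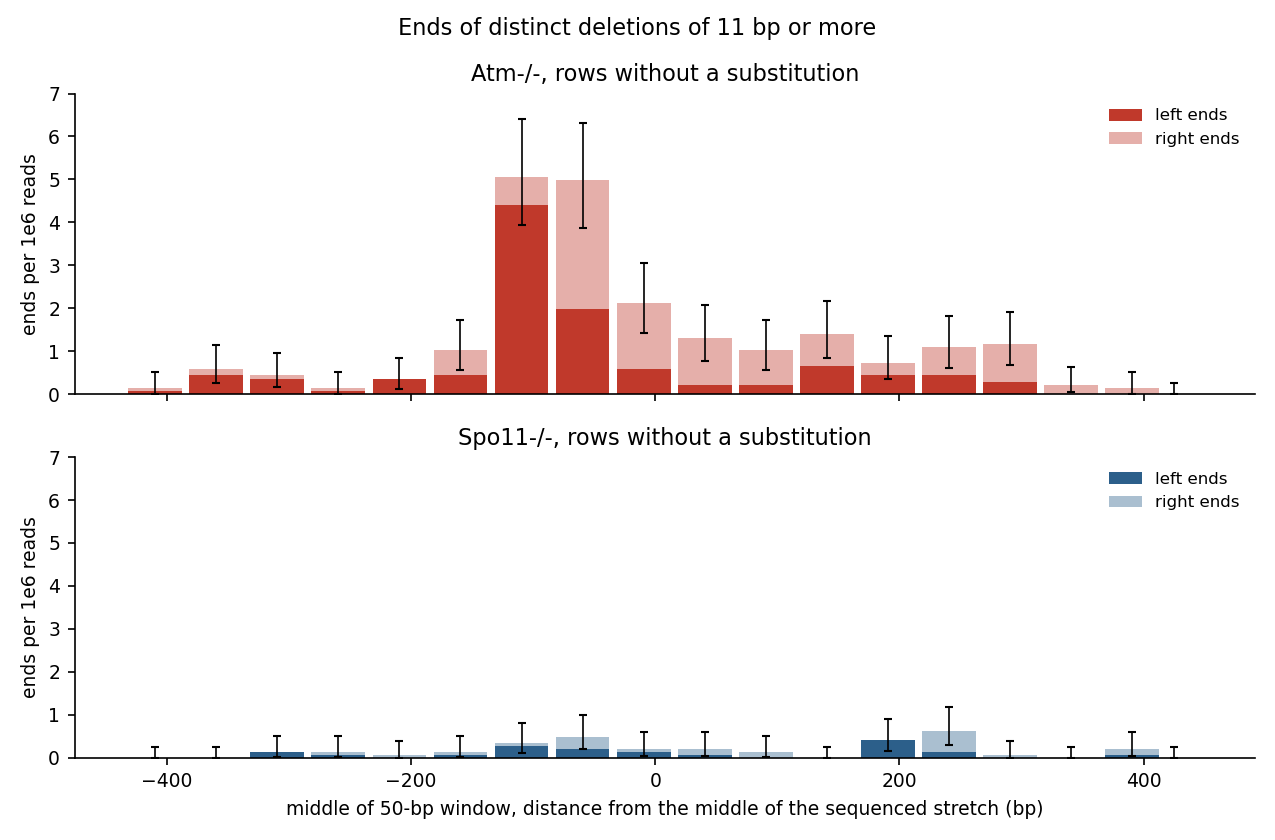
Number of ends per 1e6 reads (y axis, 4 amplicons together) of distinct deletions of at least 11 bp in 50-bp windows by distance from the middle of the sequenced stretch in bp (x axis), in rows without a substitution. Dark and pale parts are left and right ends, and bars are exact Poisson intervals. Atm-/- peaks in the 2 windows with 69 and 68 ends, left ends leading in the first and right ends in the second. Spo11-/- has its highest window farther right, with 9 ends, next to one with 6. Its second highest, with 7 ends, is the second of the Atm-/- peak windows.

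Junction types also differed in their folds. Junctions with 0 or 1 bp of microhomology numbered 20, 24, 27 and 20 in Atm-/- and 0, 4, 1 and 4 in Spo11-/- in rows without a substitution. The groups lay far apart, at 6.70 ± 1.03 and 0.679 ± 0.669 per 1e6 reads (SD, n = 4 each), a fold of 12.1 (exact permutation p = 0.125, higher in 4 of 4 amplicons). This fold was 8.31 without amplicon 1, 9.21 with an added count of 1 and 8.80 without middle ends. Junctions with 2 bp or more numbered 16, 16, 16 and 11 against 1, 3, 5 and 5, a fold of 4.41. Splitting these further, a choice made after the data were seen, gave 40 against 3 with 2 or 3 bp, a fold of 10.8, and 19 against 11 with 4 bp or more.

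The junctions with 4 bp or more were the type least different between the genotypes. Their counts were 5, 4, 5 and 5 in Atm-/- and 1, 1, 4 and 5 in Spo11-/-, so the 2 genotypes met in amplicon 4. The rates were 1.39 ± 0.105 and 0.734 ± 0.520 per 1e6 reads (SD, n = 4 each), a fold of 1.99 (exact permutation p = 0.125, and 0.114 without the pairing), and the pooled ratio of 1.81 had an interval of 0.819 to 4.21. The fold at 0 or 1 bp was 6.10 times that at 4 bp or more and 2.75 times that at 2 bp or more, in 4 of 4 amplicons (exact permutation p = 0.125 for both). Both comparisons were chosen after the data were seen, so they describe the data. In amplicon 1 Spo11-/- held 0 deletions with 0 or 1 bp, so its fold there rests on the added count of 0.5.

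As shares, 60.7% of Atm-/- junctions (52.4 to 68.5%, exact Clopper-Pearson, n = 150) and 39.1% of Spo11-/- junctions (19.7 to 61.5%, n = 23) had 0 or 1 bp, and 12.7% (7.80 to 19.1%) and 47.8% (26.8 to 69.4%) had 4 bp or more. When these lengths were laid at each position that an amplicon allows, the products had 4 bp or more in 2.21% and 3.52%, and 0 or 1 bp in 82.8% and 82.0%. In both genotypes the observed share with 4 bp or more, and its interval, lay above that of all placements. This is a description and not a test, because the class was picked after the data were seen. The intervals also treat pooled deletions as independent, although a few were counted in 2 amplicons, and the placements weigh all positions alike. Per library, the share with 2 bp or more was 44.4, 40.0, 37.2 and 35.5% in Atm-/- and 100, 42.9, 83.3 and 55.6% in Spo11-/-, where the first value is 1 deletion of 1. It was lower in Atm-/- in 4 of 4 amplicons, by 31.2 points on average (exact permutation p = 0.125, and 0.0571 without the pairing), while over all rows the direction was split, 2 amplicons each way (p = 0.5 in the exact test). Of the 9 Spo11-/- deletions wholly in the right part 6 had 4 bp or more, and of the 14 elsewhere 5. In Atm-/- these were 5 of 16 and 14 of 134.

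**Figure D4:**
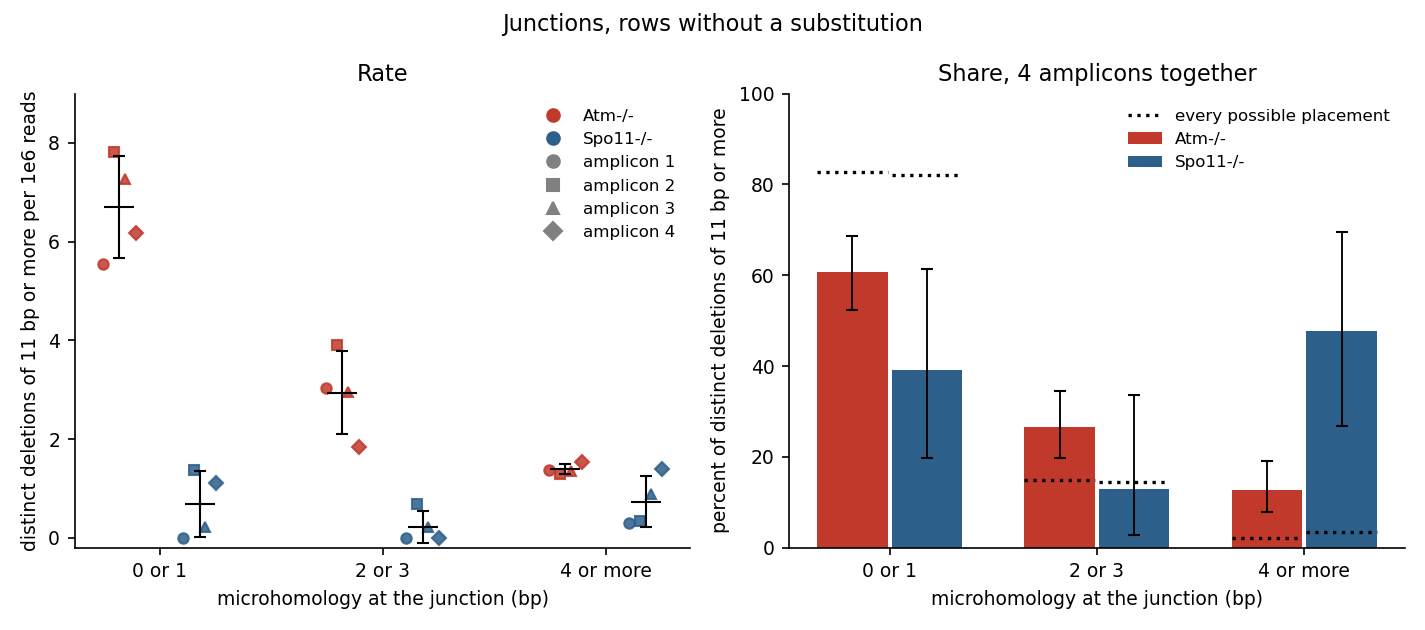
Left, rate of deletions of 11 bp or more in distinct deletions per 1e6 reads (y axis) by microhomology in bp (x axis), 1 marker per library with mean ± SD of 4, in rows without a substitution. Right, the same classes as a percent of all such deletions of a genotype with exact Clopper-Pearson intervals, and dotted lines for these lengths laid at each position that an amplicon allows. In the left panel the genotypes are apart at 0 or 1 bp and meet at 4 bp or more. In the right panel the intervals overlap at 0 or 1 bp and are apart at 4 bp or more.

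Few long deletions recurred. In rows without a substitution, 6 were found in 2 Atm-/- amplicons each and in no library of another genotype. Their junctions follow as the product reads, with 15 bases on either side of the junction and any microhomology between them. Capitals mark the microhomology or, where there is none, the bases that meet.

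33764999 to 33765052, 54 bp: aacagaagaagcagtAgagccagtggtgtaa
33765000 to 33765064, 65 bp: acagaagaagcagtAGtaacggagaaggaa
33765002 to 33765053, 52 bp: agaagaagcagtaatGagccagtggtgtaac
33765023 to 33765138, 116 bp: acaacgtgagggctGAggcatcatcaggaa
33765032 to 33765061, 30 bp: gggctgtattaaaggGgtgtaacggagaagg
33765055 to 33765277, 223 bp: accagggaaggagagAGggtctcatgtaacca

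All of these had 0 to 2 bp of microhomology, and 3 of them started in the leading window. The 52-bp deletion was the best supported, with 2 reads in amplicon 2 and 4 in amplicon 3, and with rows that carry substitutions counted it was also seen in amplicon 1, with 11 reads in all. The 54-bp deletion had 1 read in each of amplicons 1 and 3, the 65-bp deletion 2 and 1 read in the same pair, and the 30-bp deletion 1 read in each of amplicons 1 and 4. The 116-bp deletion had 2 reads in amplicon 2 and 1 in amplicon 4. The 223-bp deletion had 2 reads in each of amplicons 3 and 4, and in amplicon 4 its right end lay in the middle stretch. Amplicons overlap, so the same product in 2 amplicons is the same sequence found in 2 separate PCR products, and the sources used here do not say whether the same mouse gave both.

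Several other well-read Atm-/- deletions started in the leading window as well. In amplicon 2, chr1:33765001-33765060 (60 bp, 2 bp of microhomology) had 5 reads, and deletions of 176 bp from 33765000 and of 135 bp from 33764999 had 3 each. In amplicon 1, deletions of 153 bp from 33764999, of 143 bp from 33765010 and of 228 bp from 33764839 had 3 reads each, only the first of them starting in the window. In amplicon 4, which hardly reaches the window, the leaders started in the GAGAGCCAGT window, with 188 bp lost from 33765054 (4 reads) and 52 bp from 33765056 (3 reads), followed by 158 bp from 33765151 (2 reads). In amplicon 3 the 52-bp and 223-bp deletions above led, before one of 217 bp from 33765023 (2 reads). None of these was in the Spo11-/- library of its amplicon, which the rule for choosing them required. The rule also left out deletions with a middle end, some of them as well read and starting outside the window. Examples were 181 bp from 33764783 in amplicon 1, with 6 reads, and a 167-bp deletion in amplicon 2, with 5.

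In rows without a substitution, 4 deletions of 11 bp or more were common to both genotypes within an amplicon, and their junctions are shown for comparison with those above.

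33765296 to 33765353, 58 bp: gtctcatgtaaccaGGttagcctccacatc
33765298 to 33765355, 58 bp: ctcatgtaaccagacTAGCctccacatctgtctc
33765345 to 33765366, 22 bp: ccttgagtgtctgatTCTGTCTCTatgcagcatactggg
33765369 to 33765413, 45 bp: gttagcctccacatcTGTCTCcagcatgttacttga

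All 4 lay wholly in the right part of the stretch, and 3 of them joined at 4, 9 and 6 bp of microhomology. The 58-bp deletion with TAGC was the only one of Spo11-/- found in 2 amplicons, with 2 reads in amplicon 2 and 1 in amplicon 3, against 1 read in Atm-/-. The 45-bp deletion had 4 reads in amplicon 4 of Spo11-/- and 1 in Atm-/-, and the 22-bp deletion 1 read in each. Each of the 4 was also seen in Atm+/+ or Atm+/-. Both 58-bp deletions end where the listed deletions of amplicon 2 stop, at 33765355 or 2 bp before it.

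Shared deletions were 2.67% of the Atm-/- and 17.4% of the Spo11-/- deletions of 11 bp or more in rows without a substitution. In the 2 to 10 bp class 373 were shared, 71.6% of Atm-/- and 54.7% of Spo11-/-. Most deletions of 11 bp or more were seen once: 109 of 150 in Atm-/- (72.7%) and 21 of 23 in Spo11-/- (91.3%) rested on 1 read. At least 2 reads supported 41 in Atm-/- and 2 in Spo11-/-. The remaining Spo11-/- deletions that led their amplicons had 1 read each, at 144 bp (33765094 to 33765237), 192 bp (33764853 to 33765044), 223 bp (33765142 to 33765364), 172 bp (33765031 to 33765202) and 197 bp (33765296 to 33765492), and 4 of these 5 joined at 4 bp of microhomology. Over all rows the most-read Spo11-/- deletion had 1, 4, 2 and 6 reads in amplicons 1 to 4.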

How the data were processed

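Each deposited file lists the distinct aligned sequences with 1 deletion in 1 library. The deposited counts are whole reads per sequence and the deposited percent column is the share of the library's reads, per the file headers; total reads were their quotient. The column layout is that of CRISPResso, per the file headers, in a version not given in the sources used here. Coordinates refer to mm10 according to the submitters' processing notes. Of 28769 rows, 6 whose aligned sequence differed from the amplicon in length were dropped. Deletions were moved to their left-most placement, and microhomology is the number of bases they could be moved by. Rates are distinct deletions per 1e6 reads, compared as log2 of the count plus 0.5, and folds are antilogs of the mean within-amplicon difference. Amplicon was the block in a two-sided exact permutation test (16 sign patterns, 4 pairs), because both genotypes have the same 4 amplicons, per the labels. Alternatives were no block, at least 2 reads, middle ends left out, rows with an undetermined base left out, merging of deletions within 2 bp, an added count of 1, each amplicon left out and, chosen after seeing the data, undetermined bases and middle ends left out together. Named deletions follow a rule: all found in at least 2 amplicons of a genotype or in both genotypes, and per amplicon the 3 most-read of Atm-/- that Spo11-/- lacked and that had no middle end, the 2 most-read of Spo11-/- and, over all rows, the most-read of each, ties going to the longer and then the left-most. The 50-bp windows with most and fewest Atm-/- ends are named too. The members and lists were chosen with earlier results of these data known. The most used windows of 10 bp, the classes of 2 or 3 and of 4 bp or more of microhomology, the right part of the stretch and the tests between folds were chosen after the data were seen. Python 3.11.15, numpy 2.4.6, pandas 2.3.3, scipy 1.17.1 and matplotlib 3.10.9 were used, and the scripts were tested on simulated data.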

Additional observations from a re-analysis of the deposited data

Results flagged for a closer look

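In 2 of 42 groups of 4 libraries, 1 library stood apart from the others by Dixon's criterion, which flags about 1 group in 20 by chance. The Spo11-/- library of amplicon 1 had a median deletion length of 104.5 bp over all rows, from 4 deletions of 11 bp or more, against 58.0 to 64.5 bp in the other Spo11-/- libraries. The Atm-/- library of amplicon 3 had 0.808 distinct deletions of 11 to 29 bp per 1e6 reads in rows without a substitution, from 3 deletions, against 1.94 to 2.16 in the other Atm-/- libraries.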

How the results depend on the processing

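Over 19 results, 191 of 199 alternative values kept the direction of the reported value. Without the amplicon as replicate block, 14 results passed 0.05 with the exact permutation p of 0.0286, the block changing no value: over all rows the folds of 12.2 (11 bp or more), 7.65, 7.59 and 19.1 (length classes), 28.3 (reads) and the median length difference of 50.9 bp, and in rows without a substitution the folds of 7.64, 0.81 (2 to 10 bp), 6.60, 8.49, 9.87 (reads), 9.59 (both ends in the shared 280 bp), 12.1 (0 or 1 bp) and 4.41 (2 bp or more). The 2 to 10 bp fold over all rows turned to 1.05 with deletions within 2 bp merged, and ran from 0.951 to 1.02 as single amplicons were left out. The median length difference over all rows turned to -15.8 bp without middle ends, to -6.62 bp without rows holding an undetermined base and to -15.8 bp without both, and in rows without a substitution it ran from -26.5 to 9.83 bp as single amplicons were left out. The reads fold without a substitution, 9.87, ran from 6.34 to 13.7 as single amplicons were left out, the lowest without amplicon 1. The causes were not tested, beyond the rows each filter removes. With 3 pairs the exact test cannot go below 0.25. At least 2 reads gave no value for the percentages and medians, because a library then held no deletion. Depth limits the Spo11-/- side most, where single libraries rest on 1 to 9 deletions without a substitution.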
